A study of Homo sapiens with 12 samples.

Results

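The genes described here encode the protein subunits of the cytosolic ribosome, chosen by gene symbol: RPL or RPS followed by a number, with RPLP0 to RPLP2 and RPSA added, and without kinases, pseudogenes and L-type paralogs. Of the array's 47231 probes, 115 carried such a symbol, for 70 genes, and 68 of these genes were detected, 26 of the small subunit and 42 of the large subunit, among 17369 features tested in all. PANC-1, an established human line from a pancreatic ductal adenocarcinoma, was transfected for 20 h with 1 of 4 oligos, and total RNA was read on Illumina BeadChip arrays, which measure mRNA and not translation. Premir miR-10b supplies miR-10b as a precursor mimic, antimir-10b is an inhibitor of it, and premir control and antimir control are the matching control oligos. Each of these 4 groups held 3 biological replicates, 12 arrays in all, so every sample came from transfected cells of the same line. The line is the only model used, and precision is limited by how few arrays there are.

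The cytosolic ribosome joins a small subunit, which reads the mRNA, and a large subunit, which forms the peptide bond, and its proteins are made in near equal numbers from separate genes scattered over the genome. Most of these mRNAs begin with a C followed by a run of pyrimidines, the terminal oligopyrimidine or TOP motif, through which mTORC1 and LARP1 regulate their translation as a group. miR-10a, of the same family as miR-10b, has been reported to bind the 5′ ends of ribosomal protein mRNAs and to raise their translation, an effect that an mRNA array would not read directly.

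RefSeq start windows on GRCh38.p14 were matched to 58 of the 68 genes. A TOP start, taken as a C at the first transcribed base followed by 4 bases that are C or T on the transcribed strand, was found in 43 of 67 member windows (64.2%), against 4.07% of the 35116 windows of all genes. This is a match of letters at the annotated start and not a measured transcription start. The starts below are shown since they belong to RPL13A and to 5 genes whose values are given array by array further on, with and without the motif. Each gives 10 bases before and 20 from the annotated start, and capitals mark an unbroken pyrimidine run from the first transcribed base where the TOP rule is met.
RPL13A, chr19:49487598-49487627, plus strand: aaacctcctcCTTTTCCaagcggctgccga
RPL28, chr19:55385922-55385951, plus strand: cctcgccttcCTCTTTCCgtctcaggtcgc
RPL21, chr13:27251548-27251577, plus strand: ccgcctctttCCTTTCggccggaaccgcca
RPS10, chr6:34426050-34426079, minus strand: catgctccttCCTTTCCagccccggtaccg
RPS28, chr19:8321486-8321515, plus strand: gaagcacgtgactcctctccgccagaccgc
RPL17, chr18:49492446-49492475, minus strand: ttccctaagcagcctgaggtgagtgtttct
RPL13A, RPL28, RPL21 and RPS10 carried the motif at this position, and RPS28 and RPL17 did not. In RPS28 a pyrimidine run opens at the base after the annotated start, which the rule does not count.

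Premir miR-10b replicate 2 stood apart before any comparison was made. Detection reached 29.5% of probes there, against 39.2% to 41.3% on the other 11. Over the probes kept, its correlations with the rest had a median of 0.797, and for the other 11 arrays this median lay between 0.987 and 0.993. Each result that uses this array is therefore given with all 12 arrays and with the 11 others. The epithelial keratins KRT8, KRT18 and KRT19 were detected on all 12 arrays and KRT7 on 11, and no listed marker of endothelium, acinar cells or islets was detected. Among other markers CD14 and COL1A1 were detected on 12 arrays, CD79A on 8 and DCN on 3, while PTPRC, CD3E, COL1A2 and LUM did not pass detection. The part of these markers in the results was not tested.

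All 68 ribosomal protein genes were detected on every array. On the 11 arrays their median normalized log2 signal lay between 13.01 and 13.21, and on premir miR-10b replicate 2 it was 11.58. The mean of the array medians was 13.07 ± 0.08 (SD, n = 3) in premir control, 13.15 ± 0.05 (SD, n = 3) in antimir control and 13.10 ± 0.05 (SD, n = 3) in antimir-10b. In premir miR-10b it was 12.60 ± 0.88 (SD, n = 3), or 13.11 without replicate 2. The array medians of premir control and of the remaining premir miR-10b arrays overlapped, so that the low group mean came from 1 array.

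On premir miR-10b replicate 2 the genes did not shift as a block. Set against each gene's mean on the other 11 arrays, 43 of 68 were lower, with a median difference of -1.13. Of the 68, 59 lay more than 0.5 away, where the other arrays had 0 to 2 such genes. These counts were not taken over all features, so they do not set the members apart from other genes on that array. The genes named next were chosen for their extreme values on that array. Small subunit genes were among the lowest: RPS2, near the mRNA entry site, differed by -3.61, RPS4X by -3.29 and RPS9 by -3.10. RPL3, which lies close to the peptidyl transferase centre, differed by -3.49 and RPL4 by -3.03. Others were higher there: RPL14 by 2.04, RPL5, which carries 5S rRNA and binds MDM2 with RPL11, by 1.74, and RPS28 by 1.46.

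**Figure D1:**
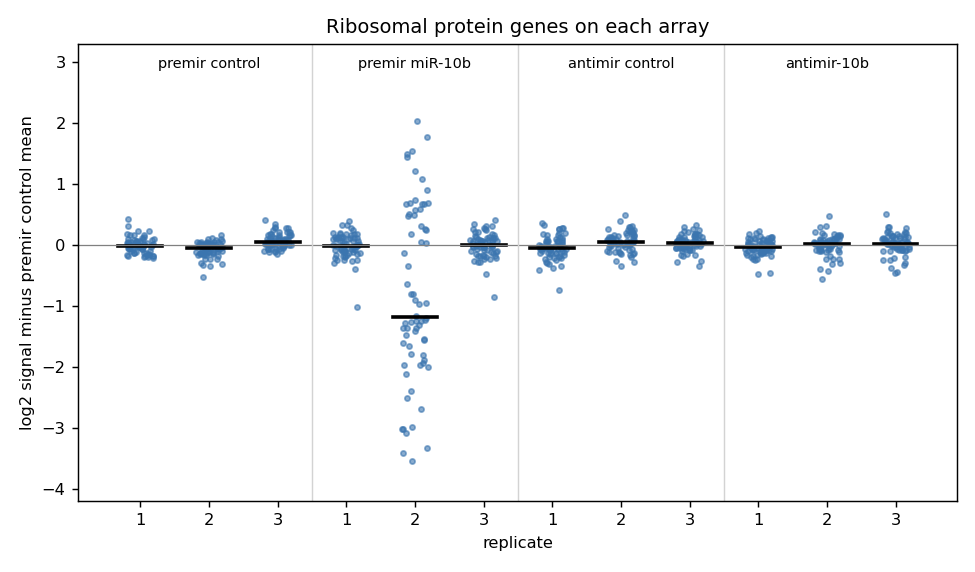
Normalized log2 signal of each of the 68 ribosomal protein genes (points) on each of the 12 arrays, minus the gene's mean in premir control, with a bar at the array's median. Premir miR-10b replicate 2 has its median at -1.18 and spreads in both directions, while the other 11 medians lie between -0.06 and 0.06.

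Without that array the members varied less around the group means than all features did. They were also brighter, with a median array median of 13.11 log2 over the 11 arrays, against 6.95 for all features. The part of brightness in this was not tested. The median residual SD around the group means was 0.128 over the members and 0.171 over all features with 11 arrays, whereas with 12 arrays it was 0.417 over the members and 0.313 over all features. The steadiest member in the 11-array fit was RPS25, with a residual SD of 0.0302, and the most variable was RPL7, with 0.330.

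Setting premir miR-10b against its control oligo addresses whether mRNAs of the ribosome respond to added miR-10b. RPL13A was the 1 member that passed the test, and it fell 1.92-fold with 11 arrays and 2.06-fold with 12. The other 67 genes did not pass it in either analysis. A gene was called when its limma p, adjusted by Benjamini-Hochberg over all 17369 features, was under 0.05. With 12 arrays 0.127% of all features were called (0.0806% lower), and with 11 arrays 0.714% (0.484% lower), which is the background for 1 of 68 genes. This background moved with the settings: over the alternatives 0 to 1023 features were called with 12 arrays, the most with array weights. With 11 arrays 32 to 136 were called over the alternatives that kept both remaining premir miR-10b arrays. The fewest came with the authors' scaled values and the most without antimir-10b replicate 3.

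RPL13A is a large subunit protein that can leave the ribosome when phosphorylated and join the GAIT complex, which represses the translation of inflammatory mRNAs in human myeloid cells, and its introns hold small nucleolar RNAs. Its gene lies on chromosome 19 and had 1 probe. In premir control the normalized log2 signal of RPL13A was 10.79, 10.91 and 11.01. In premir miR-10b it was 9.88, 9.65 and 10.05. In antimir control it was 10.83, 11.13 and 11.04, and in antimir-10b 10.92, 11.02 and 10.93. All 3 premir miR-10b arrays lay below all 9 others, and the other 3 groups overlapped. The array that stood apart gave the lowest value, but both remaining arrays were below every control.

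The change of RPL13A after premir miR-10b was -0.94 on the log2 scale with 11 arrays (SE 0.132, 95% interval -1.22 to -0.654, limma adjusted p = 0.00265). With 12 arrays it was -1.04 (SE 0.145, limma adjusted p = 0.0259). The group means were 10.90 ± 0.11 (SD, n = 3) in premir control and 9.86 ± 0.20 (SD, n = 3) in premir miR-10b, or 9.96 ± 0.12 (SD, n = 2) without replicate 2. Before normalization the RPL13A probe read 2174.8, 1804.7 and 2203.6 in premir control and 1317.7, 420.5 and 1043.2 in premir miR-10b. The groups were therefore apart in the signals as deposited too. With 12 arrays the call was lost on leaving out 9 of the 12 arrays in turn, each premir control array among them. The log2 changes ran from -1.14 to -0.94 over all 12 omissions. Omitting an antimir control or antimir-10b array altered the spread only, since all premir arrays were kept. With 11 arrays the call was kept on leaving out any premir control, antimir control or antimir-10b array. Leaving out premir miR-10b replicate 1 or 3 left 1 treated array, and the change was then -0.85 or -1.02. Scaling the arrays without quantiles or by their medians ended the call in both analyses, with adjusted p of 0.0577 and 0.0537 in the 11-array analysis.

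The RPL13A mRNA has many processed copies in the genome, and the array holds probes under the symbols of 4 of them that were detected. RPL13AP5 had 2 such probes, and its first read 13.81, 13.69 and 13.76 in premir control and 13.56, 11.001 and 13.77 in premir miR-10b. The second probe of RPL13AP5 read 13.40, 13.64 and 13.58 in premir control and 13.39, 10.57 and 13.59 in premir miR-10b. In both, the array that stood apart was low and the other treated arrays were close to the control arrays. RPL13AP20 read 13.31, 13.10 and 13.16 in premir control and 13.16, 13.97 and 13.06 in premir miR-10b, so on replicate 2 this probe was the highest of the 6 arrays. In the 11-array analysis the log2 changes were -0.09 for RPL13AP20 (95% interval -0.352 to 0.18) and -0.07 for RPL13AP3 (-0.403 to 0.265). For RPL13AP5 they were -0.09 (-0.377 to 0.194) and -0.05 (-0.329 to 0.231), and for RPL13AP6 0.01 (-0.353 to 0.378). All 5 intervals lay above that of RPL13A, -1.22 to -0.654, and none of these probes was called in a fit of every detected probe, in which 0.109% of all probes were called with 12 arrays and 0.637% with 11. Over the 20 detected probes of 14 ribosomal protein pseudogene symbols, 0 were called by limma with 12 or 11 arrays, and their 11-array changes ran from -0.45 to 0.23. Which transcripts these probes and the RPL13A probe read, and whether a copy shares them, was not tested.

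**Figure D2:**
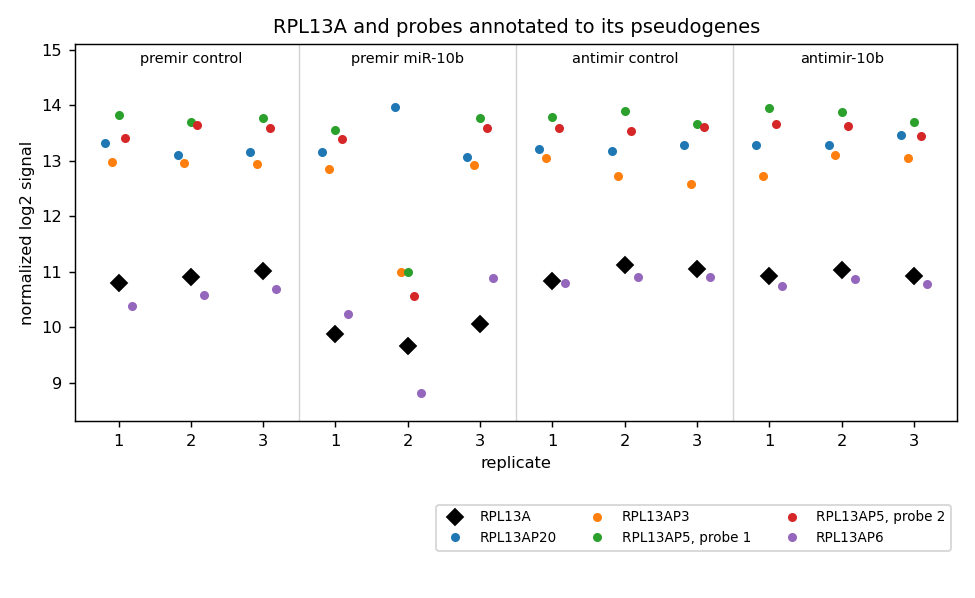
Normalized log2 signal of the RPL13A probe (diamonds) and of the 5 detected probes under the symbols of its pseudogenes (circles) on each of the 12 arrays, by group and replicate. The diamonds drop from 10.79 to 11.01 in premir control to between 9.65 and 10.05 in premir miR-10b, whereas 4 of the 5 other probes are low on premir miR-10b replicate 2 alone.

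Apart from RPL13A, the members stayed close to 0 with 11 arrays. The median log2 change of the 68 genes was 0.00, as it was for all features, 33 changes were positive and 35 negative, and 65 of 68 (95.6%) lay within 0.25 of 0, against 81.2% of all features. The 95% intervals of 63 of the 68 genes lay inside a 1.5-fold change in either direction, against 12654 of all 17369 features. With 12 arrays the median was -0.32, against 0.05 over all features, and 46 of the 68 changes were negative. Of the 12-array intervals, 11 of 68 lay inside a 1.5-fold change, against 5000 of all 17369 features. Leaving out premir miR-10b replicate 2 therefore moved the members' median from -0.32 to 0.00. Scaling moved the reference itself: with the authors' scaled values the 12-array median of all features was -0.23 and that of the members -0.57.

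The members were then read by subunit, with no test between the subunits. RPL13A, of the large subunit, was the 1 call, and 0 of the 26 small subunit genes were called. The median 11-array change was 0.00 over the 26 small subunit genes and 0.00 over the 42 large subunit genes, and 25 and 38 of their intervals lay inside a 1.5-fold change. With 12 arrays these medians were -0.40 and -0.30. The stalk proteins, which recruit the GTPase elongation factors, had 11-array changes of -0.02 for RPLP1 and 0.05 for RPLP2.

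In the small subunit the lowest change with 11 arrays was -0.18, at RPS10, a protein that the ligase ZNF598 ubiquitinates on collided ribosomes. RPS10 read 13.98, 13.94 and 14.01 in premir control and 13.72, 14.24 and 13.88 in premir miR-10b. The array that stood apart was the highest of the 6, and the other treated arrays lay just below the control arrays. RPS3, at the mRNA entry channel, read 13.47, 13.61 and 13.48 in premir control and 13.35, 10.50 and 13.34 in premir miR-10b. Its change was -0.17 with 11 arrays and -1.12 with 12, and it passed the test in neither. RPS28, near the mRNA exit channel, had the highest 11-array change of this subunit, 0.31 (95% interval -0.133 to 0.743). RPS28 read 11.47, 10.64 and 11.38 in premir control and 11.56, 12.71 and 11.38 in premir miR-10b, so the groups overlapped and premir control replicate 2 was the low array.

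In the large subunit RPL17, which lines the peptide exit tunnel, read 13.32, 13.34 and 13.32 in premir control and 13.15, 11.40 and 13.11 in premir miR-10b. The treated arrays lay below the 3 control arrays, with an 11-array change of -0.20 (SE 0.124, limma adjusted p = 0.808). In the antimir arm RPL17 read 13.19, 13.39 and 13.31 with antimir control and 13.15, 13.26 and 13.43 with antimir-10b, a span that reaches down to the treated values. RPL7A had a change of -0.18 and read 11.09, 11.07 and 11.22 in premir control and 11.04, 11.62 and 10.85 in premir miR-10b. RPL21 changed by -0.17, with a 95% interval of -0.689 to 0.346 that reflects its scatter: it read 10.33, 10.30 and 10.94 in premir control and 10.28, 8.55 and 10.43 in premir miR-10b. None of these 3 genes was called.

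RPL28 had the highest value of the members in the 11-array analysis, 0.34 (SE 0.161, 95% interval -0.00946 to 0.682, limma adjusted p = 0.656). It read 6.98, 6.58 and 6.69 in premir control and 7.08, 8.20 and 7.10 in premir miR-10b. The treated arrays were all above the control arrays, narrowly for replicates 1 and 3. In the antimir arm RPL28 read 7.03, 6.90 and 6.67 with antimir control and 6.87, 6.77 and 6.50 with antimir-10b, so antimir control replicate 1 came close to the treated level. The next 11-array changes were 0.23 for RPL36A, which contacts the tRNA exit site, 0.21 for RPL36 and 0.19 for RPL13, with adjusted p of 0.812, 0.801 and 0.869.

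Non-overlap between groups was no more frequent among the members than among all features. With 12 arrays the 3 treated arrays lay beyond the 3 control arrays for 6 of 68 genes (8.82%), higher for RPL28 and lower for RPL13A, RPL17, RPS29, RPS3 and RPS6, against 11.7% of all features. With 11 arrays it was 8 of 68 genes (11.8%), RPL7A and RPS10 being added, against 19.8% of all features.

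**Figure D3:**
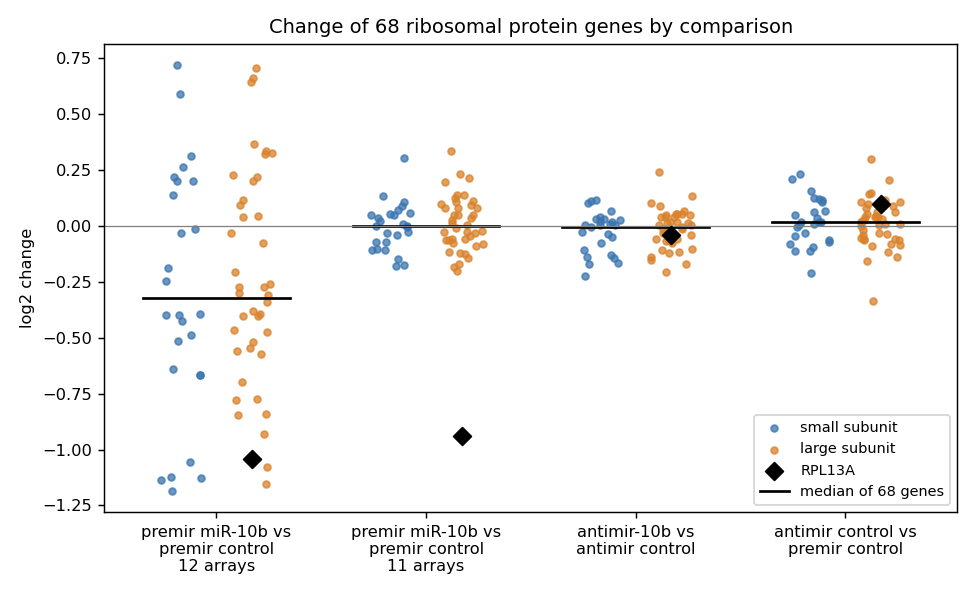
Log2 change of each of the 68 ribosomal protein genes in 4 comparisons, with small subunit genes in blue, large subunit genes in orange, RPL13A as a black diamond and a bar at the median. The 12-array values after premir miR-10b spread from -1.18 to 0.72 with its median at -0.32. With 11 arrays the median is 0.00 and RPL13A, at -0.94, lies apart from the others, which it does not do in the other 2 comparisons.

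The same genes were then read in the antimir arm, which asks what changes when miR-10b is inhibited. No ribosomal protein gene was called by limma with 12 or with 11 arrays, and none had an unadjusted p under 0.05 in either analysis. No feature at all was called here (0%), with unadjusted p under 0.05 at 46 features with 12 arrays and 365 with 11. The median change was -0.01 over the members and 0.00 over all features. At the brightest probe all 68 genes lay within 0.25 of 0, against 92.0% of all features. Of their intervals, 66 of 68 lay inside a 1.5-fold change with the 11-array spread (24 with the 12-array spread). Over all 17369 features these counts were 15248 and 7087. RPL13A changed by -0.04 (95% interval -0.296 to 0.212 with the 11-array spread).

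The members furthest from 0 in the antimir arm had limma adjusted p of 0.999 with the 11-array spread. RPS2 changed by -0.22, reading 13.68, 13.52 and 13.41 with antimir control and 13.39, 13.47 and 13.08 with antimir-10b, with overlap. RPL7A changed by -0.21, from 10.93, 11.14 and 11.30 to 10.90, 10.94 and 10.92, where the treated arrays overlapped antimir control replicate 1. RPS7 and RPL37A each changed by -0.17 and RPS14 by -0.16. On the positive side RPL21 changed by 0.24, RPL22 by 0.14, RPS6 by 0.12, RPS23 by 0.11 and RPL6 by 0.10. RPL22, which is dispensable for the ribosome in mice and is a haploinsufficient tumor suppressor there, read 10.13, 10.10 and 10.17 with antimir control and 10.37, 10.20 and 10.24 with antimir-10b. RPS6, the substrate of the S6 kinases, read 12.77, 12.78 and 12.81 and then 12.82, 13.07 and 12.82. Both were without overlap, as were 7 of the 68 genes (10.3%), 3 higher and 4 lower, against 8.64% of all features.

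The difference between the premir and the antimir effect was tested in the same model. RPL13A differed by -0.90 between the arms with 11 arrays (SE 0.177, 95% interval -1.28 to -0.515, limma adjusted p = 0.0532) and by -0.999 with 12 (limma adjusted p = 0.457). The fall of RPL13A in one arm was thus not shown to differ from the antimir arm at the threshold used. No other member passed either: 0 of 68 were called, against 0.363% of all features with 11 arrays and 0% with 12. Over the members this difference had a median of 0.03 with 11 arrays. Of their intervals, 49 of 68 lay inside a 1.5-fold change, against 7134 of all 17369 features.

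The control oligos, compared as antimir control against premir control, gave no call among the 68 genes. Of all features, 0.023% were called with 12 arrays and 0.207% with 11. The intervals of 23 of the 68 genes lay inside a 1.5-fold change with the 12-array spread, and 66 with the 11-array spread. Over all 17369 features these counts were 6174 and 13362. The members' changes ran from -0.34 at RPL7 to 0.30 at RPL29, with a median of 0.02, and 66 of 68 lay within 0.25 of 0. RPL13A differed by 0.10 between the controls. The groups did not overlap for 6 of 68 genes (8.82%), 3 in each direction, against 19.8% of all features. The premir control arrays enter both this comparison and the premir one, so the values of these comparisons are not independent.

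Where a gene had several probes, they gave a second reading of its change. This was so for 30 genes. With 11 arrays the gap between the highest and the lowest log2 change of a gene's probes after premir miR-10b had a median of 0.119, and in 0 of the 30 genes was it over 0.5. In the antimir arm the median gap was 0.119 and 2 genes exceeded 0.5. The probes of RPL13 ran there from -0.72 to -0.12 and those of RPL8 from -0.54 to 0.02. With 12 arrays the median gap was 0.524, 15 genes exceeded 0.5 and 7 exceeded 1.

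The widest 11-array gap was at RPL32, whose 4 probes ran from -0.15 to 0.17, with 3 of them detected on fewer than 12 arrays. RPL14's probes ran from -0.34 to -0.03, and those of RPS15 from -0.01 to 0.29. RPLP1 ran from -0.02 to 0.26, RPL8 from 0.05 to 0.33 and RPL17 from -0.20 to 0.08. In these 6 genes no probe was called. Each gap was narrower than the RPL13A change, but gaps of uncalled genes do not show how far probes of a called gene may differ.

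Probes of a single gene went opposite ways on the array that stood apart. Against the mean of the other 11 arrays, the 3 probes of RPL6 differed there by 0.53, -1.70 and -4.95, and the 3 probes of RPLP1 by -1.15, -1.98 and 2.18. Both probes of RPL14 were higher, by 2.04 and 1.79. Taken over the 12 arrays, the RPL6 probes accordingly gave changes from -1.87 to 0.11 and the RPLP1 probes from -0.65 to 0.94. RPL13A, with 1 probe, had no second reading of its own.

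**Figure D4:**
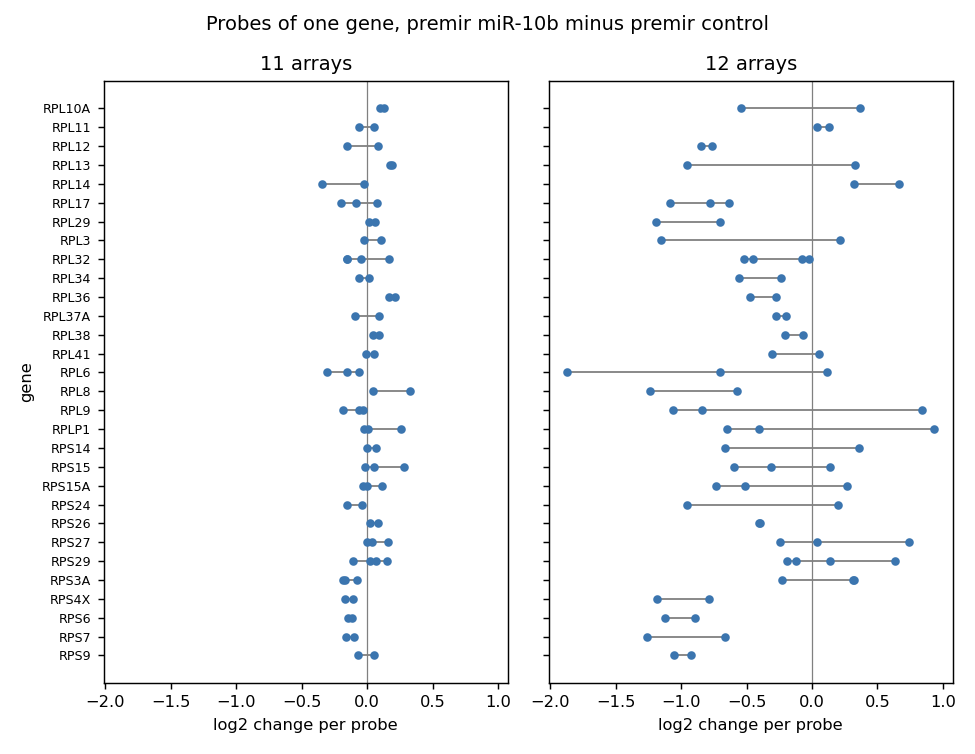
Log2 change after premir miR-10b at each detected probe (points) of the 30 ribosomal protein genes with several probes, joined by a line per gene, with 11 arrays on the left and 12 on the right. The lines are short on the left, where the median gap is 0.119, and long on the right, where it is 0.524 and RPL6 spans -1.87 to 0.11.

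The brightest probes of the set belonged to RPS29, RPLP2 and RPL41, with mean log2 signals of 14.20, 14.20 and 14.15, and the dimmest to RPS4Y1, RPL37 and RPL28, with 6.06, 6.19 and 6.95. Probes differ in how well they bind, so these signals rank the probes and not the mRNAs. Of the brightest, RPS29 changed by -0.11, RPLP2 by 0.05 and RPL41 by -0.01 after premir miR-10b with 11 arrays. Of the dimmest, RPS4Y1 changed by 0.13 and RPL37 by -0.13. RPL10, whose product joins the large subunit last, was detected on 0 arrays at both of its probes, with raw signals of 45.7 to 58.7 and 55.6 to 68.3, and RPS4Y2 on 0 arrays, with 60.6 to 77.9. RPLP0 and RPSA had no probe under that symbol and were not analysed here.

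Members with a TOP start were set beside those without. With 11 arrays the 43 genes with one had a median change of 0.02 after premir miR-10b (range -0.94 to 0.34), and the 15 without one -0.06 (range -0.20 to 0.31). In the antimir arm the medians were -0.02 and -0.01. These medians are descriptions, and the classes rest on a match of letters at the annotated first base. The range without the motif lay inside the range with it only through RPL13A, which had the lowest value. Next lowest of the members was RPL17, without the motif, at -0.20.

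Genes that work with the ribosome were read in the same way from lists. The paralogs of ribosomal proteins, such as RPL39L and RPL7L1, passed detection for 5 of 8 genes, with RPL3L, RPL10L and RPL22L1 not detected. None of the 5 was called, and with 11 arrays they ranged from -0.14 at RPL39L to 0.19 at RPL7L1 after premir miR-10b. FAU, which encodes a ubiquitin-like protein fused to a small subunit protein, changed by -0.09 with 11 arrays and -0.63 with 12.

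Among these lists, a single gene was called after premir miR-10b, an initiation factor. EIF2S3, the gamma subunit of the initiation factor eIF2 that carries the initiator tRNA to the small subunit, read 9.55, 9.45 and 9.36 in premir control and 10.48, 9.98 and 10.25 in premir miR-10b. In antimir control EIF2S3 read 10.22, 10.24 and 10.08, and in antimir-10b 10.31, 10.19 and 10.40. The premir control arrays were the low ones, below all 9 others. EIF2S3 rose after premir miR-10b by 0.91 with 11 arrays (SE 0.129, limma adjusted p = 0.00269) and had a change of 0.78 with 12 (limma adjusted p = 0.124). It was also called between the control oligos with 11 arrays, where antimir control was higher than premir control by 0.73 (limma adjusted p = 0.0183), and these comparisons share the premir control arrays. It was 1 of 34 detected initiation and elongation factors, whose median change was 0.02 with 11 arrays. A list of translation factors and other genes taken to have a TOP motif held 16 detected genes. It had 0 calls and a median of -0.05 with 11 arrays. Its changes ran from -0.46 at HNRNPA1, not itself a translation factor, to 0.10 at PABPC1, the poly(A) binding protein. The motif was not looked up for this list.

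The genes that build the ribosome gave 0 calls among 39 detected, with an 11-array median of 0.05, from -0.48 at the helicase DDX21 to 0.51 at the snoRNP protein NOP58. The network of MYC, a transcriptional activator of ribosome genes, gave 0 calls among 7, from -0.42 at MXD1 to 0.52 at MXD4. Among 11 genes of mTORC1 translation control none was called, with MTOR at -0.24 and EIF4EBP1, which restrains eIF4E, at 0.49. Among 8 genes of ribosome quality control and its p53 link none was called either, with LTN1 at -0.19 and the collision sensor ZNF598 at 0.53. The 76 mitochondrial ribosomal protein genes, which build a separate ribosome for mitochondrial mRNAs, had 0 calls and an 11-array median of 0.04, from -0.40 at MRPL50 to 0.48 at MRPS34. These counts hold with 12 arrays too, where limma called 0 genes in each of these lists, and in the antimir arm 0 features were called.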

How the data were processed

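Total RNA of 12 PANC-1 samples was extracted with Trizol and labelled with the Illumina TotalPrep kit, per the labels' protocols. The deposited table gives a non-normalized bead signal intensity per probe and a detection p-value per probe and array. A deposited table of scaled intensity values multiplies each array by 1 constant, from 0.927 to 1.12. For the slides, the scanning software and its version, the entry is not given in the sources used here.

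The non-normalized intensities were processed in R 4.3.3 with limma 3.58.1: neqc background correction from detection p, offset 16, quantile normalization and log2. Probes with detection p under 0.05 on at least 3 arrays were kept (21195 of 47231). The brightest probe stood for each symbol of the supplied probe annotation, which left 17369 features, 11725 of them with a symbol. limma lmFit and eBayes fitted 4 group means, two-sided, with Benjamini-Hochberg adjustment over all features. The 11-array analysis left out premir miR-10b replicate 2 and kept the normalization of the 12. Samples were not treated as paired by replicate number. Correlations of same-numbered deviations were 0.208, 0.0286 and 0.0596 in the premir arm and 0.160, -0.102 and 0.364 in the antimir arm, where not every pair exceeded 0.1. Premir miR-10b replicate 2 enters the premir values, so these correlations do not settle whether the numbers pair the samples.

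The members, lists and tests were chosen with earlier results of these data known, including the RPL13A call, which is no independent support. The rule for named genes took RPL13A and its pseudogene probes, each member called, the 5 highest and the 5 lowest members of each oligo comparison in the 11-array analysis, the 3 brightest and the 3 dimmest members, the 6 widest probe gaps, undetected members, paralogs, and from each list the called genes or else the largest rise and fall. Values of premir miR-10b replicate 2, markers and array medians are descriptions. Promoter sequences are RefSeq's on GRCh38.p14. The miR-10b sequence, seed matches and a slide block were not used here. The scripts were tested on simulated data. Alternatives were other scalings, background, filters, probe rules, a replicate block, variance moderation, array weights, fits to the compared groups alone and omission of each array in turn.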

Additional observations from a re-analysis of the deposited data

How the results depend on the processing

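After premir miR-10b, RPL13A kept its direction in each of 23 alternatives with 12 arrays and 23 with 11. Many of these could not move its change. RPL13A had 1 probe, so filters and probe rules left its values as they were. Variance moderation, fits to the compared groups alone and omission of an antimir control or antimir-10b array kept the premir group means. With 12 arrays RPL13A was called in 9 of the 23 alternatives (limma adjusted p from 0.000365 to 0.718). With 11 arrays limma adjusted p ran from 0.00103 to 0.0577 over the alternatives that kept both remaining premir miR-10b arrays. Among these it was called except with the scaled values and median centring. With 12 arrays the count of called members was 1 and became 0 with the authors' scaled values (RPL13A -1.32, adjusted p = 0.453), median centring (-1.12, 0.273), the replicate block (-1.04, 0.0866), trended and robust variances (-1.04, 0.0764) and the compared arrays alone (-1.04, 0.718). Leaving out 1 of the 12 arrays gave 0 to 1 called members and an RPL13A change of -1.14 to -0.94. The call was lost without any premir control array, premir miR-10b replicate 3, antimir control replicate 2 or 3, or any antimir-10b array, and the cause was not tested. The members' median ran from -0.55 without premir miR-10b replicate 3 to 0.00 without replicate 2.

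With 11 arrays the count became 0 with the scaled values (RPL13A -0.87, adjusted p = 0.0577) and median centring (-0.77, 0.0537). Median centring put the members' median at 0.12 and that of all features at 0.09. Leaving out 1 further premir control, antimir control or antimir-10b array kept 1 call. RPL13A was at -0.995 to -0.884 without a premir control array. Leaving out premir miR-10b replicate 1 or 3 left 1 treated array, with RPL13A at -0.85 or -1.02. With the replicate block RPL13A, the 1 member called with 11 arrays, was -0.90 (0.00707) and stayed called. Normalization of the 11 arrays alone, chosen after seeing the data, gave -0.93.

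In the antimir arm 0 members were called throughout, and the RPL13A change, never called, turned from -0.04 to 0.10 with the scaled values and 0.076 with median centring, and ran from -0.13 to 0.022 with 1 array left out. For the difference between the arms, array weights gave 1 called member, RPL13A at -0.79 (0.00946), and 638 calls among all 17369 features. In the other alternatives 0 members were called. Between the controls 0 members were called in any alternative. Among the members, mean signal was lowest at RPS4Y1, RPL37 and RPL28.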
